A study of Mus musculus with 2 samples.

Results

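The mature neutrophils of CT26 tumours were described here in 1 library of tumours labelled mock and 1 library of tumours that expressed PTIR1. Cells were selected on measured values. A cell entered when at least 200 genes were detected, at most 10% of its unique molecular identifiers (UMIs, one for each captured transcript) were mitochondrial, and Csf3r, Cxcr2 and Retnlg together had at least 3 UMIs and at least 0.1% of the cell's UMIs. It also needed at least 5 UMIs of S100a8 and S100a9, fewer than 10 of the secondary granule genes Camp, Ngp and Ltf, and at most 2 of the macrophage genes Adgre1 and C1qa. Of 16895 kept cells, 256 met the rule: 99 of 9328 in the mock library and 157 of 7567 in the PTIR1 library. The genes of the rule are therefore given as a description and support nothing.

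Neutrophils are short-lived phagocytes that leave the bone marrow with their granule proteins already made. They enter tissue along gradients of CXCR2 ligands, and their survival depends on G-CSF, the ligand of the receptor encoded by Csf3r. In tumours they are known for inflammatory cytokines and chemokines, for interferon-responsive states, and for genes such as Arg1 and Vegfa that have been tied to immune suppression and vessel growth.

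CT26 is a colon carcinoma cell line of BALB/c mice, and both groups were CT26 tumours in BALB/c mice that differ in the labels by genotype alone, mock against PTIR1-expressing. PTIR1 is described by the series as a suppressor of the immunoproteasome, the form of the proteasome induced by interferon gamma. The labels name the material tumour-infiltrating lymphocytes, so neutrophils are cells outside the stated population, and neither the number of animals pooled nor any sort is stated. Each group was 1 library of 3' single-cell RNA sequencing, so no test of a difference was possible. All intervals are exact 95% intervals that cover counting error only and not the difference between animals.

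Neutrophil markers numbered 13, of which Csf3r, Cxcr2, Retnlg, S100a8 and S100a9 are genes of the rule and check nothing. With the rule's genes included, the median was 240 marker UMIs per mock member and 195 per PTIR1 member, most of them S100a8 and S100a9. Of the markers outside the rule, Hdc had 627 and 561 UMIs, Mxd1 720 and 740, Trem1 302 and 549, and Mmp8 58 and 117. Each was detected in both libraries, but these are raw counts out of 414991 mock and 646083 PTIR1 UMIs and not levels. Hdc was found in 91 of 99 mock and 100 of 157 PTIR1 members, and the marker Il1r2 in 82 and 92. S100a9, a calcium-binding alarmin subunit that makes up much of the neutrophil cytosol, ranged per 10000 UMIs of a cell from 0 to 1582 with a median of 389.7 in mock members and from 0.925 to 1597 with a median of 225 in PTIR1 members. G0s2, an inhibitor of triglyceride breakdown, was no gene of the rule, and 90 of 99 mock and 146 of 157 PTIR1 members had a UMI of it. Its level in the B cell gate was 7.62 and 6.64 CPM (UMIs of the gene scaled to the summed UMIs of the gate in that library, mock then PTIR1), against 5217 and 8318 CPM in members. Of the bone marrow granule genes, 0 of 99 mock members and 12 of 157 PTIR1 members had any Camp, Ngp or Ltf UMI. Immature neutrophil markers, which include these genes, summed to 13.5 and 92.6 CPM in the B cell gate, so they were higher there too. A gate for immature neutrophils, the same rule with at least 10 such UMIs, held 1 cell in each library and was not compared.

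The PTIR1 members were not uniform. Of 157, 36 had no UMI of Csf3r or Cxcr2, and passed on the Retnlg gene alone, which encodes a resistin-like protein of neutrophils. In the mock library 0 of 99 members lacked both receptors. The 36 cells had from 3 to 21 Retnlg UMIs, medians of 1579 UMIs in all and 27 S100a8 and S100a9 UMIs. The 105 PTIR1 members with at least 2 receptor UMIs had medians of 3182 and 264. Of the 36, 32 had a G0s2 UMI and 34 an Il1b UMI, but 4 had one of Hdc, the histamine-forming enzyme of neutrophils, and 3 one of the decoy receptor gene Il1r2. A UMI of the natural killer (NK) cell gene Nkg7 was found in 25 of them and one of Gzma in 22. Of the 105 members with at least 2 receptor UMIs, 16 had a UMI of Nkg7 and 60 one of Gzma. Gzma was thus common in both sets. The source of Retnlg in these cells was not tested.

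Because of these cells, results are also given for strict members, a set defined after the data were seen. It required at least 2 UMIs of Csf3r and Cxcr2, at most 10000 UMIs, fewer than 3 UMIs of lymphoid, fibroblast and tumour markers, and fewer than 10 UMIs of macrophage and dendritic cell markers. It held 76 mock and 66 PTIR1 cells.

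**Figure D1:**
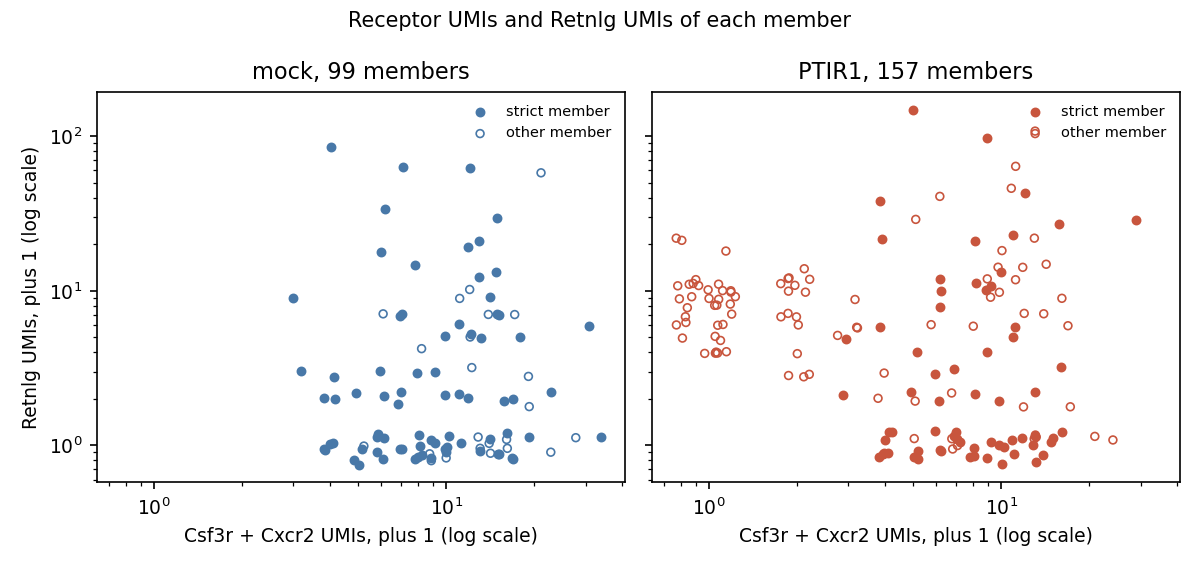
Each point is 1 member, placed by its Csf3r and Cxcr2 UMIs (horizontal, plus 1, log scale) and its Retnlg UMIs (vertical, plus 1, log scale), with a small random shift and strict members filled. In the PTIR1 library 36 points stand at the left edge with no receptor UMI, where the mock library has none.

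Median depth differed little, while UMIs of other cell types differed by marker set. At least 3 UMIs of lymphoid, fibroblast or tumour markers were found in 16 of 99 mock and 64 of 157 PTIR1 members. For macrophage or dendritic cell markers these were 47 and 83 members. The members of the mock library held 414991 UMIs and those of the PTIR1 library 646083, with medians of 3010 and 2775 UMIs and 1004 and 923 genes per cell. Across all kept cells the medians were 2948 and 7016 UMIs. Macrophage markers, 10 genes with none at 0 in either library, summed to 1279.5 CPM in mock and 1614 CPM in PTIR1 members, and monocyte markers to 2786 and 2729 CPM. NK cell markers, none at 0, summed to 407 and 423 CPM, and 5 mock against 39 PTIR1 members had at least 3 of their UMIs. T cell markers summed to 460.3 and 46.4 CPM, with up to 95 UMIs in 1 mock member. At least 3 B cell marker UMIs were found in 1 mock and 6 PTIR1 members, and at least 3 eosinophil or red cell UMIs in 0. Scrublet's own threshold called 0 cells in the mock library and 87 in the PTIR1 library, with 0 members among them. In the mock library 3 members were among the 696 cells with the highest scores, so the libraries are not compared. Members shared 0 cell barcodes between the libraries, of 22 shared among kept cells. The part of these cells in the results below was not tested, and values in strict members are given beside most of them.

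Mature neutrophils were 1.06% of kept mock cells (0.863 to 1.29) and 2.07% of kept PTIR1 cells (1.77 to 2.42), a ratio of 1.95 (1.51 to 2.54). Of cells with a UMI of the leukocyte gene Ptprc they were 1.60% and 2.67%. With at least 2 Csf3r and Cxcr2 UMIs, which also leaves out PTIR1 members with 1 such UMI, the ratio was 1.31 (0.984 to 1.74), from 99 and 105 cells. Among strict members the shares were 0.815% and 0.872%, a ratio of 1.07 (0.758 to 1.51). Just inside the rule, 4 mock and 16 PTIR1 members had exactly 3 receptor UMIs, and just outside it 3 and 17 cells with 2 such UMIs met every other limit. A share of cells cannot be told apart from a change in the numbers of the other cells.

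UMIs were summed over members and expressed as CPM, and the ratio of the PTIR1 to the mock level was taken for the 2571 genes with at least 50 UMIs over both libraries. The rule used some of these values, and a cell weighs by its UMIs in such sums. Of these genes, 238 (9.26%) were past 1.5-fold higher and 352 (13.7%) past 1.5-fold lower in PTIR1 members, and the median log2 ratio was -0.04. In strict members 85 of 997 genes (8.53%) were higher and 139 (13.9%) lower by that size. Counts of list members below are read against these shares. Gene positions are from GENCODE vM21 on the mm10 (GRCm38) genome.

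Interferon-response genes were lower in PTIR1 neutrophils. Of 28 measured genes of the type I interferon response, 21 were past 1.5-fold lower and 0 past 1.5-fold higher, with a median log2 ratio of -0.99. Of 15 measured genes of the interferon gamma response, 12 were lower and 1 higher, with a median of -1.48. In strict members the counts were 15 lower and 1 higher of 19, and 7 lower and 1 higher of 9, with medians of -0.91 and -0.95. The lists overlap in what drives them, since interferon gamma also induces many type I genes.

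The promoters of 5 of these genes are shown because these genes were lower in PTIR1 members and the letters bound by interferon-activated factors can be read in them. The bases from 140 to 41 before the RefSeq start site are printed 5' to 3' on the gene's strand (GRCm38.p6, the reference strain and not BALB/c), with matches in capitals. Capitals mark the core of the interferon-stimulated response element, which is GAAA, any 2 bases and GAAA on either strand (TTTC, any 2 bases and TTTC when read on the other), or the gamma-activated site TTC, any 3 bases and GAA, which reads the same on both strands.
Irf1, chr11:53769874-53769973, plus strand: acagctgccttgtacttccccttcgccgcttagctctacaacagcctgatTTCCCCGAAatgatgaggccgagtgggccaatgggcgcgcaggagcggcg
Gbp2b, chr3:142594707-142594806, plus strand: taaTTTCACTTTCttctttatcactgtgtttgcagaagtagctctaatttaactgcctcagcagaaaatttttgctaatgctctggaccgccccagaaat
Ifit1, chr19:34640749-34640848, plus strand: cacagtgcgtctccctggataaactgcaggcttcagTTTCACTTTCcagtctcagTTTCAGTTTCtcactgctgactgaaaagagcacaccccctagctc
Rsad2, chr12:26456493-26456592, minus strand: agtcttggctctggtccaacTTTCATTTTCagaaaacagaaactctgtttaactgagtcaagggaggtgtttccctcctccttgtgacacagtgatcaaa
Isg15, chr4:156200859-156200958, minus strand: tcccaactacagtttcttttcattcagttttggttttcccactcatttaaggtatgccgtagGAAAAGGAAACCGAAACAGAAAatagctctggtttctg
Irf1 held 1 gamma-activated site. Gbp2b and Rsad2 held 1 response element core each, Ifit1 held 2, and Isg15 held 3, each overlapping its neighbour. In the 250 bases before the start, the response element core was found in 8 of 24 measured type I genes with a promoter sequence and in 8 of 13 interferon gamma genes (33.3% and 61.5%), against 3.04% of 27025 promoters. The gamma-activated site was in 3 and 5 of them (12.5% and 38.5%), against 7.18%. The lists hold genes chosen as interferon-responsive, and the counts include genes that were not past 1.5-fold lower, such as Cxcl10. These shares therefore describe the lists and not these cells. A match describes the letters and not binding.

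Irf1 (ENSMUSG00000018899, chromosome 11, 53770014 to 53778374), the transcription factor induced early by interferon gamma, was at 533 CPM in mock members (465 to 608, 221 UMIs) and 127 CPM in PTIR1 members (101 to 158, 82 UMIs). This was 4.2-fold lower (3.24 to 5.47) in PTIR1 members, and 2.58-fold lower (1.83 to 3.69) in strict members. Per 10000 UMIs of a cell it ranged from 0 to 61.8 with a median of 0 in mock and from 0 to 31.1 with a median of 0 in PTIR1 members, so the ranges of single cells overlapped. After each cell was thinned to 1000 UMIs (91 mock and 150 PTIR1 members were deep enough, 8 and 7 were not), an Irf1 UMI was found in 30.8% of mock (21.5 to 41.3) and 10% of PTIR1 members (5.71 to 16). Unthinned shares were 48.5% and 24.2%, and B cells at the same thinned depth gave 10% and 6.27% (unthinned 27.6% and 25.1%). B cells served as a reference for free RNA. For Irf1 and any other gene that B cells make themselves, their own RNA cannot be told apart from free RNA. Before thinning, the B cells had medians of 4420 and 4656 UMIs. The interval of the PTIR1 members includes the share of B cells, so a level above that of B cells was not resolved there.

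Among the guanylate-binding proteins, GTPases that act on intracellular pathogens, Gbp5 was 5.64-fold lower (3.2 to 10.5) and Gbp2b (ENSMUSG00000040264, chromosome 3, 142594847 to 142619179) 2.59-fold lower (2.05 to 3.3) in PTIR1 members. Gbp2b was at 458 and 176 CPM, and a UMI was found in 45 of 99 mock and 31 of 157 PTIR1 members. In strict members the folds were 3.23-fold lower (1.43 to 8.22) for Gbp5, on 27 against 8 UMIs, and 1.47-fold lower (1.06 to 2.05) for Gbp2b. Cd274, which encodes the checkpoint ligand PD-L1, was at 357 and 217 CPM, 1.65-fold lower (1.3 to 2.09), and 1.93-fold lower (1.32 to 2.89) in strict members. Cxcl9, a ligand of CXCR3, a chemokine receptor of T cells, was at 235 against 7 UMIs, but 1 mock cell held 186 of them. Without the top cell of each library its ratio was 0.0655. A thinned Cxcl9 UMI was in 4.4% of mock (1.21 to 10.9) and 2% of PTIR1 members (0.414 to 5.73). B cells had 3.33% and 1.13%, within these intervals, so a share above that of B cells was not resolved. Of strict members, 2 of 68 mock and 1 of 62 PTIR1 cells had such a UMI.

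Not all genes of that list were lower. Cxcl10, another CXCR3 ligand, had a ratio of 0.958 (0.784 to 1.17) in all members and 1.81 (1.34 to 2.46) in strict members. Irf8, a factor of the myeloid lineage, had ratios of 1.43 (1.11 to 1.86) and 2.33 (1.01 to 5.8). Ly6a was 2.57-fold higher (1.6 to 4.31), with 56 of its 88 PTIR1 UMIs in 1 cell, and lower in strict members at a ratio of 0.349 (0.0344 to 1.95) on 6 against 2 UMIs.

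Among type I genes, Ifit1 (ENSMUSG00000034459, chromosome 19, 34640871 to 34650009), whose product binds viral RNA, was at 460.3 CPM in mock members (397 to 530.4, 191 UMIs) and 121 CPM in PTIR1 members (95.4 to 151, 78 UMIs). It was 3.81-fold lower (2.91 to 5.03) in all members and 4.26-fold lower (2.9 to 6.41) in strict members. Rsad2 (ENSMUSG00000020641, chromosome 12, 26442746 to 26456452), the antiviral enzyme viperin, was at 1588 and 752 CPM, 2.11-fold lower (1.87 to 2.38), and 2.55-fold lower (2.15 to 3.03) in strict members. Isg15 (ENSMUSG00000035692, chromosome 4, 156199424 to 156200818), a ubiquitin-like modifier, was at 1371 and 769 CPM, 1.78-fold lower (1.58 to 2.01), and 1.98-fold lower (1.67 to 2.35) in strict members. Ifi27l2a was 1.63-fold lower (1.46 to 1.81), and Ifih1, the sensor MDA5, 3.44-fold lower (1.96 to 6.27) on 42 and 19 UMIs. In strict members their ratios were 0.532 (0.442 to 0.638) and 0.551 (0.229 to 1.24). Ifitm3 was high in both libraries, at 2123 and 1797 CPM, with a ratio of 0.846 (0.775 to 0.925). Ifitm1 ran the other way, with a ratio of 1.47 (1.24 to 1.75) in all and 2.83 (2.28 to 3.51) in strict members.

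These genes were not spread evenly over cells. Rsad2 ranged per 10000 UMIs from 0 to 351 with a median of 0 in mock and from 0 to 256 with a median of 0 in PTIR1 members, so most cells of both libraries had none. At 1000 UMIs a Rsad2 UMI was found in 34.1% of mock (24.5 to 44.7) and 14% of PTIR1 members (8.88 to 20.6), unthinned in 44.4% and 22.3%, and in 1.43% and 0.878% of B cells. In strict members the thinned shares were 33.8% and 16.1%. For Isg15 the thinned shares were 51.6% of mock (40.9 to 62.3) and 36.7% of PTIR1 members (29 to 44.9), unthinned 73.7% and 55.4%, against 1.9% and 2.26% in B cells. Of the 31 mock cells with a thinned Rsad2 UMI, 23 also had Isg15 and 15 Ifit1, against 24 and 2 of the 60 without. Of 21 such PTIR1 cells, 16 had Isg15 and 5 Ifit1, against 39 and 2 of 129.

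Summed over the type I list, thinned mock members had from 0 to 128 UMIs per 1000 with a median of 9, and PTIR1 members from 0 to 82 with a median of 5. The difference was larger at the top: 24 of 91 mock cells (26.4%, 17.7 to 36.7) and 10 of 150 PTIR1 cells (6.67%, 3.24 to 11.9) had 20 or more. The limit of 20 was chosen after the values were seen, it makes a range and not a cell type, and 4 and 9 cells lay from 18 to 21. In strict members the medians were 9 and 8, and 25% and 12.9% had 20 or more, with intervals that overlapped (15.3 to 37 and 5.74 to 23.9). For the interferon gamma list, 18 of 91 mock and 56 of 150 PTIR1 cells had none (19.8%, 12.2 to 29.4, and 37.3%, 29.6 to 45.6).

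**Figure D2:**
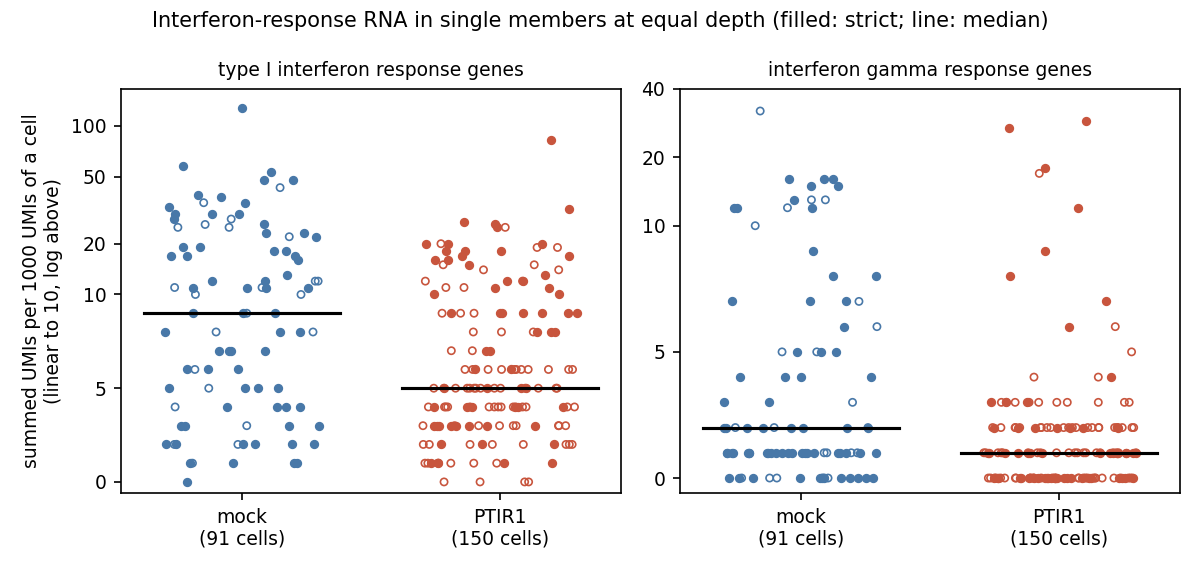
Each point is 1 member thinned to 1000 UMIs, placed by its summed UMIs of the type I (left) or interferon gamma list (right), with the axis linear to 10 and logarithmic above, strict members filled, and lines at the medians over all members shown. The mock library has more cells above 20 UMIs on the left and fewer at 0 on the right.

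In the macrophage gates of the same libraries (416 mock and 311 PTIR1 cells), where 4.64% of 10528 genes were past 1.5-fold lower and 5.46% higher, 19 of 23 interferon gamma genes were past 1.5-fold lower, and their log2 ratios had a median of -1.05. Of 30 type I genes 3 were lower there, with a median of -0.21. Rsad2 had a ratio of 0.851 (0.788 to 0.919) and Ifit1 of 0.935 (0.826 to 1.06) in macrophages, against 0.474 (0.42 to 0.533) and 0.262 (0.199 to 0.343) in neutrophils. Irf1 had 0.622 (0.56 to 0.692) in macrophages. The interferon gamma list was lower in both cell types. The difference between the cell types was not tested.

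**Figure D3:**
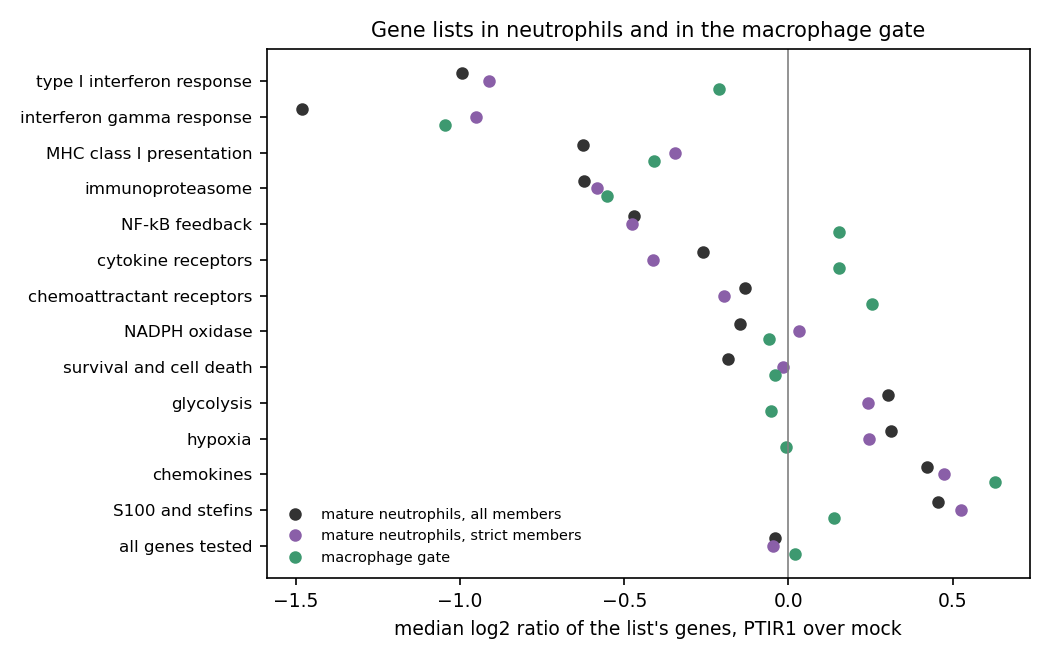
Points are medians of the log2 ratio of PTIR1 to mock over the measured genes of each list, for all members, strict members and the macrophage gate. The type I interferon list stands at -0.99 and -0.91 in neutrophils and at -0.21 in macrophages, and the list of all genes stands near 0 in each.

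Subunits of both forms of the proteasome were measured. Of 5 measured genes of the inducible form, which cuts peptides for class I molecules, 3 were past 1.5-fold lower, with a median log2 ratio of -0.62. Psmb8 and Psmb9, catalytic subunits, were at 504 and 286 CPM and at 313 and 173 CPM. They were 1.76-fold lower (1.44 to 2.16) and 1.81-fold lower (1.39 to 2.35). The activator subunit Psme2 was 1.54-fold lower (1.13 to 2.1), and Psme1 had a ratio of 0.807 (0.62 to 1.05). Of 9 constitutive subunits, 0 were past 1.5-fold higher and 0 lower, with a median of 0.20. The difference between the forms was not tested. In strict members 3 immunoproteasome genes had enough UMIs, 1 of them past 1.5-fold lower, with a median of -0.58. Psmb8 was then 1.58-fold lower (1.07 to 2.36), Psmb9 had a ratio of 0.668 (0.408 to 1.08), and Psme2 of 0.864 (0.445 to 1.66). In the macrophage gate Psmb8 had a ratio of 0.696 (0.671 to 0.723) and Psmb9 of 0.591 (0.561 to 0.622).

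Of the genes of class I presentation, 6 of 12 were past 1.5-fold lower and 1 higher, with a median log2 ratio of -0.63. B2m, the light chain of all class I molecules, was at 3007 CPM in mock members (2843 to 3179, 1248 UMIs) and 2124 CPM in PTIR1 members (2013 to 2239, 1372 UMIs), 1.42-fold lower (1.31 to 1.53). The heavy chains H2-D1 and H2-K1 were 1.39-fold lower (1.31 to 1.48) and 1.34-fold lower (1.17 to 1.53), short of 1.5-fold. H2-T23, a nonclassical chain that presents leader peptides to NK receptors, was 1.68-fold lower (1.36 to 2.08), and Tap2, a subunit of the peptide transporter, 2.36-fold lower (1.45 to 3.91). The lectin chaperone Canx was 1.54-fold higher (1.1 to 2.17). In strict members 1 of 6 genes was past 1.5-fold lower and 1 higher, with a median of -0.35, and B2m was 1.49-fold lower (1.31 to 1.7). There the ratios were 0.803 (0.556 to 1.15) for H2-T23, 0.771 (0.358 to 1.62) for Tap2 and 1.4 (0.679 to 2.93) for Canx, none past 1.5-fold. Heavy chain genes are near-identical copies, so reads can be split between them, and BALB/c carries other class I alleles than the reference.

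**Figure D4:**
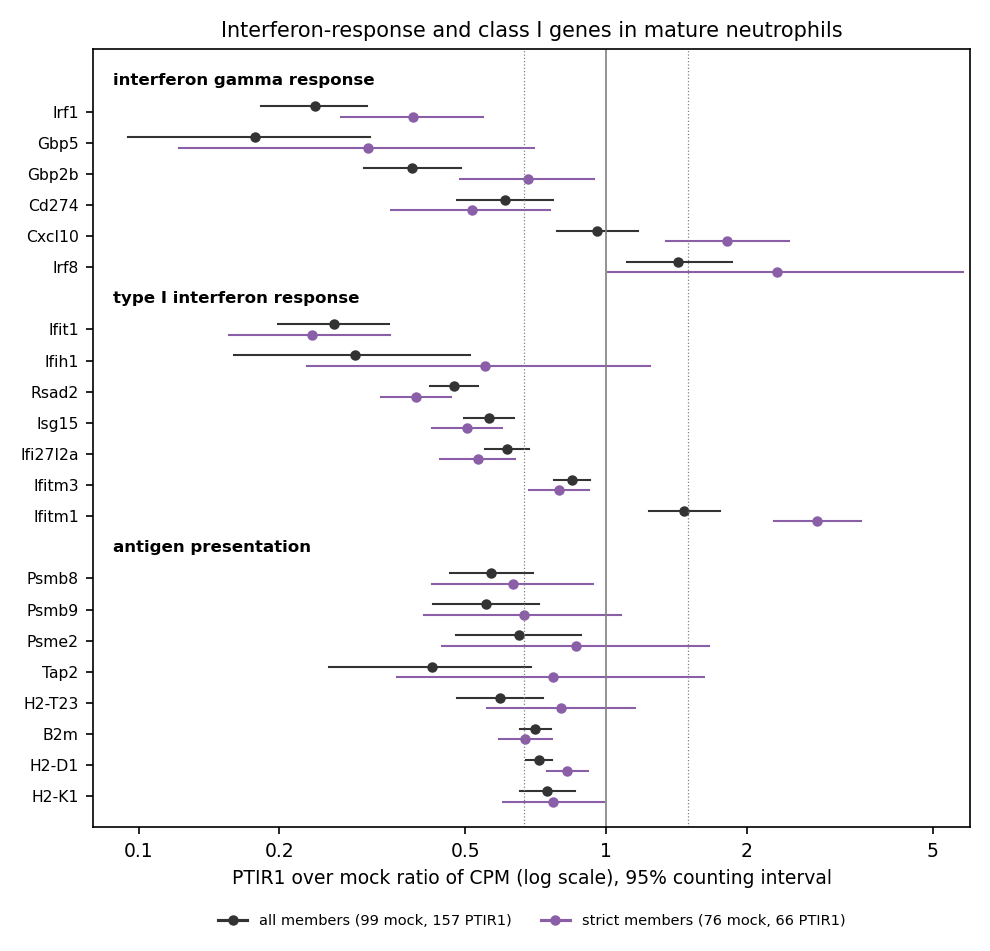
Points are PTIR1 over mock ratios of CPM (log scale) with exact 95% counting intervals, for all members (dark) and strict members (purple), and dotted lines mark 1.5-fold. Irf1, Gbp5, Ifit1, Rsad2 and Isg15 lie left of the lower dotted line in both sets, and Ifitm1 lies right of 1 in both.

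Secreted signals differed in both directions. Of the chemokines, 5 of 12 were past 1.5-fold higher and 1 past 1.5-fold lower, with a median log2 ratio of 0.42. In the macrophage gate 8 of 14 were past 1.5-fold higher and 3 lower, with a median of 0.63. The list was thus higher in both cell types, and the difference between them was not tested. Ccl2 and Ccl7, ligands of the monocyte receptor CCR2, were 4.29-fold higher (3.78 to 4.89) and 5.05-fold higher (3.83 to 6.77), but B cells held Ccl2 at 738 and 647 CPM, against 669.9 and 2876 CPM in members, so the mock level was not above that of B cells. In addition 1 PTIR1 member held 474 of 1858 Ccl2 UMIs. In strict members Ccl2 was 1.74-fold higher (1.34 to 2.27) and Ccl7 had a ratio of 1.54 (0.86 to 2.83). Cxcl2, a neutrophil-attracting ligand of CXCR2 and the chemokine with the most UMIs, was at 20528 CPM in mock members (20094 to 20969, 8519 UMIs) and 28987 CPM in PTIR1 members (28573 to 29405, 18728 UMIs), a ratio of 1.41 (1.38 to 1.45), and 1.25 (1.21 to 1.29) in strict members. Per 10000 UMIs it ranged from 0 to 964 with a median of 151 in mock and from 0 to 1552 with a median of 191 in PTIR1 members, which overlapped. Cxcl1, a second such ligand, was 3.75-fold higher (2.76 to 5.19), and 1.98-fold higher (1.32 to 3.02) in strict members. A thinned Cxcl1 UMI was in 9.89% of mock and 21.3% of PTIR1 members, but in 11.8% and 11.3% of strict members. Thinned shares of B cells were 1.67% and 5.4% for Cxcl1 and 19.5% and 38.3% for Cxcl2, both higher in the PTIR1 library. For Cxcl2 the members had 92.3% and 99.3%. The part of free RNA in these ratios was not tested.

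The ratios of the inflammatory chemokine genes Ccl3 and Ccl4 were lower in strict members, and that of Ccl3 turned. In all members their ratios were 1.27 (1.19 to 1.36) and 0.853 (0.801 to 0.908). In strict members they were 0.692 (0.634 to 0.756) and 0.471 (0.429 to 0.515), so that Ccl4 was past 1.5-fold lower. Single members with the most UMIs held 438 of 2853 PTIR1 Ccl3 UMIs and 240 of 1734 mock Ccl4 UMIs. Ccl6 had ratios of 1.2 (1.12 to 1.29) and 0.866 (0.789 to 0.952).

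Of the cytokines, 3 of 10 were past 1.5-fold higher and 2 past 1.5-fold lower, with a median log2 ratio of -0.16. Il1b, the inflammatory cytokine with the most UMIs of the list, was at 10479.7 and 9330.1 CPM, a ratio of 0.89 (0.856 to 0.926), and 1.14 (1.09 to 1.2) in strict members. Tnf was 2.27-fold lower (1.47 to 3.55) on 54 and 37 UMIs, and 2.96-fold lower (1.42 to 6.77) in strict members. Csf1, the growth factor of macrophages, was 1.86-fold lower (1.37 to 2.54), and 2.1-fold lower (1.4 to 3.2) in strict members. Vegfa, which drives vessel growth, was at 130.1 and 309.6 CPM, 2.38-fold higher (1.75 to 3.28), and 4.38-fold higher (2.23 to 9.37) in strict members on 11 and 46 UMIs. Osm, of the interleukin 6 family, was 1.73-fold higher (1.5 to 2.0), with a ratio of 1.18 (0.968 to 1.43) in strict members.

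Genes that feed back on NF-kB had small differences, mostly below a ratio of 1. Of them 0 of 13 were past 1.5-fold higher and 3 past 1.5-fold lower, with a median log2 ratio of -0.47, and -0.48 in strict members. All but 1 of the 13 had a ratio below 1. Tnfaip2 was at 1263 and 545 CPM, 2.32-fold lower (2.02 to 2.66), and 1.53-fold lower (1.29 to 1.82) in strict members. Nfkbia, the inhibitor that holds NF-kB in the cytosol, was 1.26-fold lower (1.17 to 1.35), Nfkbiz 1.3-fold lower (1.14 to 1.49), and Ptgs2, the prostaglandin synthase, 1.25-fold lower (1.13 to 1.39), all 3 short of 1.5-fold. In the macrophage gate 0 of 15 were past 1.5-fold lower and 4 higher, with a median of 0.15, and the difference between the cell types was not tested.

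Receptors on the cell surface were mostly near or below 1. The rule used Csf3r and Cxcr2, whose levels were 1441 and 744 CPM and 954 and 589.7 CPM (mock, then PTIR1). Retnlg, also of the rule, was at 1333 and 2175 CPM. Of the chemoattractant receptors, 2 of 10 were past 1.5-fold higher and 2 past 1.5-fold lower, with a median log2 ratio of -0.13, with Cxcr2 of the rule among the lower. Ccrl2, a receptor that binds chemerin, was 1.35-fold lower (1.24 to 1.48), and Cxcr4, which holds neutrophils in the marrow and marks aged cells, 1.74-fold lower (1.24 to 2.46), with 2.09-fold lower (1.23 to 3.63) in strict members. Ltb4r1, the leukotriene B4 receptor, was 1.87-fold higher (1.39 to 2.56), and 2.09-fold higher (1.33 to 3.36) in strict members. Ccr1 had a ratio of 0.94 (0.849 to 1.04). Of the cytokine receptors, 1 of 17 was past 1.5-fold higher and 3 past 1.5-fold lower, with a median log2 ratio of -0.26, with Csf3r of the rule among the lower. Tnfrsf1a, a receptor for TNF, was 1.5-fold lower (1.1 to 2.05), and Il4ra, the interleukin 4 receptor chain, 1.65-fold higher (1.0 to 2.8), with ratios of 0.756 (0.487 to 1.16) and 1.99 (0.88 to 4.79) in strict members. Tgfbr2 was 1.99-fold lower (1.19 to 3.35), and 3.03-fold lower (1.16 to 9.26) in strict members. Il1r2 had a ratio of 0.942 (0.801 to 1.11).

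Of the adhesion genes, 1 of 9 was past 1.5-fold higher and 3 past 1.5-fold lower, with a median log2 ratio of -0.33. Itgam and Itgal encode the alpha chains of the integrins Mac-1 and LFA-1. Itgam was 1.8-fold higher (1.52 to 2.14) and Itgal 1.7-fold lower (1.26 to 2.28). In strict members Itgam had a ratio of 1.3 (0.972 to 1.76) and Itgal was 1.71-fold lower (1.07 to 2.8). Cd44, a receptor for hyaluronan, had a ratio of 0.861 (0.764 to 0.971). Of the Fc and pattern receptors, 3 of 17 were past 1.5-fold higher and 1 past 1.5-fold lower, with a median log2 ratio of 0.10. Fcgr4, an activating IgG receptor, was 2.15-fold lower (1.59 to 2.91), and 1.97-fold lower (1.27 to 3.14) in strict members. Clec4n, the lectin Dectin-2, was 1.74-fold higher (1.36 to 2.24), and 2.34-fold higher (1.5 to 3.72) in strict members. Clec5a, a lectin that signals through DAP12, was 2.79-fold higher (1.7 to 4.8), and 2.75-fold higher (1.17 to 7.17) in strict members. Fcgr2b, the inhibitory IgG receptor, was 1.67-fold higher (1.33 to 2.11), with a ratio of 0.985 (0.588 to 1.64) in strict members. Cd14 was 1.39-fold higher (1.28 to 1.51), and 1.4-fold higher (1.26 to 1.55) in strict members.

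All granule and stefin genes past 1.5-fold were higher in all members. Of the S100 and stefin genes, 2 of 10 were past 1.5-fold higher and 0 past 1.5-fold lower, with a median log2 ratio of 0.46, and in strict members 4 of 10 were higher and 0 lower. Stfa2l1, a stefin of the cysteine protease inhibitors, was at 752 and 1109.8 CPM, a ratio of 1.48 (1.29 to 1.69), and 1.7 (1.46 to 1.98) in strict members. Cstdc5, a stefin gene outside the list, was at 236 and 724 CPM, 3.07-fold higher (2.46 to 3.85), and 4.59-fold higher (3.43 to 6.23) in strict members. At 1000 UMIs a Cstdc5 UMI was in 14.3% of mock (7.83 to 23.2) and 37.3% of PTIR1 members (29.6 to 45.6), unthinned in 17.2% and 49.7%, and in 0% and 0.125% of B cells, where 0 of 420 mock cells allow a share of up to 0.714%. In strict members the thinned shares were 11.8% and 33.9%. Stefin genes are near-identical copies, so the split of reads between them is uncertain. S100a10 was 1.84-fold higher (1.56 to 2.18), and 1.58-fold higher (1.09 to 2.3) in strict members. A thinned S100a10 UMI was in 30.8% of mock (21.5 to 41.3) and 44.7% of PTIR1 members (36.6 to 53), unthinned in 50.5% and 69.4%, but in 27.9% and 27.4% of strict members and in 35.2% and 28.9% of B cells, so no difference in its share was seen in strict members. S100a6 was 1.4-fold higher (1.3 to 1.51), and 1.28-fold higher (1.15 to 1.42) in strict members. S100a8 and S100a9, of the rule, were at 18528 and 15606 CPM and 39965 and 35149 CPM.

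Of the secondary granule genes, 2 of 5 were past 1.5-fold higher and 0 past 1.5-fold lower, with a median log2 ratio of 0.43. In the macrophage gate 6 of 7 were past 1.5-fold higher and 0 lower, with a median of 3.13. The list summed to 58.3 and 253 CPM in B cells (mock, then PTIR1), against 1012 and 1486 CPM in members. Its RNA was thus higher in other cells of the PTIR1 library too, and the part of free RNA was not tested. Lcn2, an iron carrier that starves bacteria, was at 475 and 723 CPM, 1.52-fold higher (1.29 to 1.81), and 1.48 (1.19 to 1.84) in strict members. Wfdc21 had a ratio of 1.34 (1.08 to 1.68). Chil3 was at 3 and 73 UMIs, with 39 in 1 cell. Of the gelatinase and secretory granule genes, 2 of 12 were past 1.5-fold higher and 0 past 1.5-fold lower, with a median log2 ratio of 0.18, and those higher were Itgam and Retnlg, a gene of the rule. Lyz2, lysozyme, was 1.3-fold higher (1.23 to 1.37), and Hp and Pglyrp1 were 1.31-fold lower (1.12 to 1.52) and 1.37-fold lower (1.08 to 1.73). In strict members their ratios were 1.75 (1.57 to 1.96), 1.07 (0.873 to 1.31) and 0.82 (0.612 to 1.1). Of the 7 measured genes of the NADPH oxidase, the source of the oxidative burst, 0 were past 1.5-fold in either direction. Primary granule proteases are made in the marrow, and only Srgn, their proteoglycan carrier, was measured, with a ratio of 0.985 (0.949 to 1.02).

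Single genes of metabolism differed in both directions. Of the hypoxia genes, 3 of 13 were past 1.5-fold higher and 0 past 1.5-fold lower, with a median log2 ratio of 0.31. Besides Vegfa, Slc2a1, the glucose transporter GLUT1, was 1.79-fold higher (1.4 to 2.32), and 1.65-fold higher (1.15 to 2.41) in strict members. Hilpda, a lipid droplet protein, was 2.02-fold higher (1.69 to 2.43), with a ratio of 1.19 (0.873 to 1.61) in strict members. Of the glycolysis genes, 1 of 16 was past 1.5-fold higher and 1 past 1.5-fold lower, with a median log2 ratio of 0.30. Pgam1 was 1.79-fold higher (1.46 to 2.22), Ldha 1.41-fold higher (1.21 to 1.65) and Gapdh 1.37-fold higher (1.24 to 1.51), and Hk3, the hexokinase of myeloid cells, 1.69-fold lower (1.12 to 2.55). In strict members their ratios were 1.66 (1.18 to 2.37), 1.23 (0.945 to 1.61), 1.62 (1.36 to 1.93) and 0.488 (0.239 to 0.95). In the macrophage gate the medians of both lists were -0.01 and -0.05. Plin2, a coat protein of lipid droplets, was 2.69-fold higher (2.16 to 3.36), and 1.73-fold higher (1.25 to 2.4) in strict members. Fth1, the ferritin heavy chain that stores iron, was at 17610 CPM in mock members (17209 to 18018, 7308 UMIs) and 26490.4 CPM in PTIR1 members (26095 to 26890.3, 17115 UMIs), a ratio of 1.5 (1.46 to 1.55), and 1.37 (1.32 to 1.42) in strict members. It ranged per 10000 UMIs from 26.3 to 1021 with a median of 128 in mock and from 31.1 to 1312 with a median of 160.1 in PTIR1 members.

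Of the genes linked with suppressive neutrophils, 4 of 17 were past 1.5-fold higher and 1 past 1.5-fold lower, with a median log2 ratio of 0.18. Arg1, arginase, which removes the arginine that T cells need, was at 352 and 987 CPM, 2.81-fold higher (2.34 to 3.38), and 3.72-fold higher (2.18 to 6.67) in strict members on 18 and 64 UMIs. B cells held it at 278 and 296 CPM. A thinned Arg1 UMI was in 15.4% of mock and 31.3% of PTIR1 members, and in 5.95% and 11.2% of B cells. Strict members had thinned shares of 11.8% (5.22 to 21.9) and 16.1% (8.02 to 27.7), so a difference in its share was not resolved there. Both intervals include the share of B cells of the same library. A share above that of B cells was therefore not resolved in strict members of either library. Of the Arg1 UMIs in members, 89 of 146 were in 1 mock cell and 161 of 638 in 1 PTIR1 cell. Without those 2 cells' UMIs the ratio was 5.38 (4.08 to 7.2). Spp1, osteopontin, was 2.74-fold higher (2.5 to 3.0), but B cells of the libraries held 508 and 1916 CPM, against 1402 and 3842 CPM in members, and its ratio in strict members was 1.78 (1.56 to 2.04). Of the genes linked with tumour-adapted neutrophils, 2 of 13 were past 1.5-fold higher and 2 past 1.5-fold lower, with a median log2 ratio of 0.20, and in strict members 2 were higher and 4 lower of 12.

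**Figure D5:**
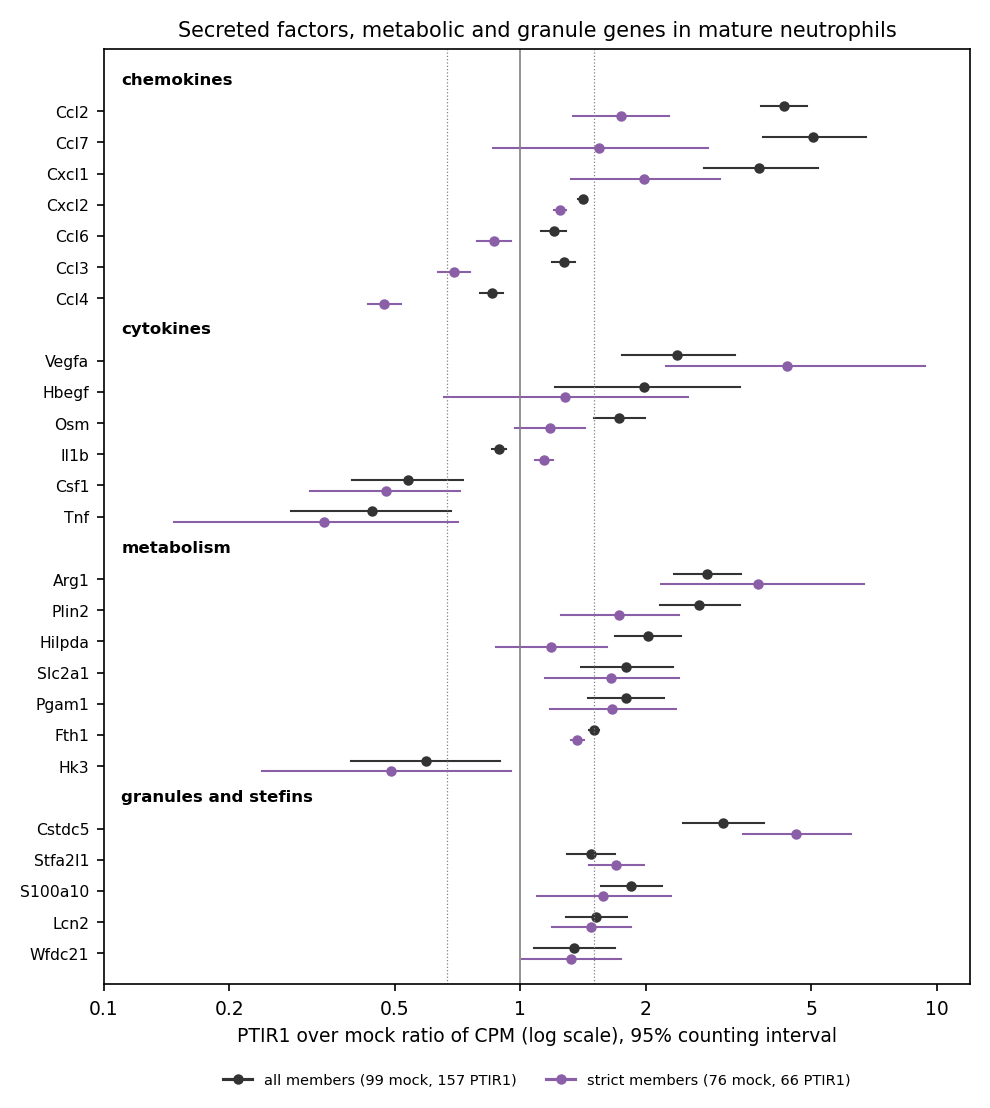
Points are PTIR1 over mock ratios of CPM (log scale) with exact 95% counting intervals, for all members (dark) and strict members (purple), and dotted lines mark 1.5-fold. Vegfa, Arg1 and Cstdc5 lie right of the upper dotted line in both sets, and Ccl3 lies on opposite sides of 1. The share of strict members with an Arg1 UMI was not resolved from that of B cells.

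Stress and survival genes showed few differences of that size. Of the immediate early and stress genes, 2 of 19 were past 1.5-fold higher and 1 past 1.5-fold lower, with a median log2 ratio of 0.12. Nr4a1, an early gene of receptor signalling, was 1.79-fold lower (1.39 to 2.31), and 2.1-fold lower (1.4 to 3.2) in strict members, and Jun was 1.64-fold higher (1.42 to 1.89), and 1.8-fold higher (1.28 to 2.54) in strict members. Hspa1a, the inducible heat shock protein, was 3.81-fold higher (2.93 to 5.01) but found in 5 of 99 mock and 13 of 157 PTIR1 members, and its ratio in strict members was 0.201 (0.0603 to 0.532). Of the survival and cell death genes, 1 of 16 was past 1.5-fold higher and 2 past 1.5-fold lower, with a median log2 ratio of -0.18. Mcl1, on which neutrophil survival depends, had a ratio of 1.05 (0.968 to 1.14), and Casp4, the inflammatory caspase 11, was 2.34-fold lower (1.44 to 3.84), with a ratio of 0.504 (0.239 to 1.01) in strict members. Inhibitory receptors, 9 measured, had 0 past 1.5-fold in either direction. Of the transcription factors, 0 of 13 were past 1.5-fold higher and 1 past 1.5-fold lower, with a median log2 ratio of -0.25, the lower one being Irf1. Cebpb, a factor of emergency granulopoiesis, had a ratio of 1.18 (1.11 to 1.26). Of the lipid genes, 1 of 9 was past 1.5-fold higher and 2 past 1.5-fold lower, with a median log2 ratio of -0.19, with Abcg1, a cholesterol exporter, 2.83-fold lower (1.73 to 4.7), and 2.97-fold lower (1.36 to 7.16) in strict members. Of the iron and redox genes, 3 of 14 were past 1.5-fold higher and 0 past 1.5-fold lower, with a median log2 ratio of 0.06.

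Several of the most extreme ratios rested on few cells. Gzmf, a granzyme, had 496 mock UMIs, of which 479 were in 1 cell, and Gzmd had 247 of 252 in 1 cell. Without the top cell of each library their ratios were 0.567 and 1.28. The proliferation gene Mki67 had 75 against 8 UMIs, with 40 in 1 mock cell, and the T cell gene Cd3g 67 against 8, with 38 in 1 cell. Of the cell cycle list, 0 of 8 were past 1.5-fold higher and 6 past 1.5-fold lower, with a median log2 ratio of -0.73, and in strict members 0 of 3 were lower and 1 higher. On the other side Pf4 had 305 of 818 PTIR1 UMIs in 1 cell and Mrc1, a macrophage receptor, 133 of 219. Ctsl and Ifrd1 were found in more cells. Ctsl, a lysosomal protease, was 3.12-fold higher (2.62 to 3.73) in 50 of 99 mock and 123 of 157 PTIR1 members, and Ifrd1 3.13-fold higher (2.51 to 3.93) in 38 of 99 mock and 72 of 157 PTIR1 members. In strict members they were 1.8-fold higher (1.28 to 2.57) and 2.67-fold higher (1.72 to 4.26). A thinned Ctsl UMI was in 26.4% of mock (17.7 to 36.7) and 46.7% of PTIR1 members (38.5 to 55), in 22.1% and 27.4% of strict members and in 11.9% and 20.6% of B cells (unthinned 42.3% and 61.8%), so the reference for free RNA was higher in the PTIR1 library too. For Ifrd1 the strict members had 10.3% and 19.4% and the B cells 8.1% and 8.03%. Ratios in strict members were 1.54 (0.976 to 2.45) for Pf4, 3.14 (0.561 to 31.8) for Mrc1, 0.149 (0.00332 to 1.16) for Mki67 and 0.698 (0.0583 to 6.09) for Cd3g, the last 3 on fewer than 10 UMIs in each library.

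Within each library the members varied most in abundant genes of alarmins and chemokines. The variance of thinned UMIs over their mean was 33 in mock and 37.2 in PTIR1 members for S100a9, the highest by the lower of both values, against medians of 1.02 and 1.06 over 2692 genes. Next came Cxcl2 (23.3 and 22.3), Ccl4, S100a8, Fth1, Cxcl3, Ccl3, Gm42418, Rsad2 and Cstdc4. Gm42418 overlaps a ribosomal RNA gene. Across cells S100a8 and S100a9 had a Pearson correlation of 0.83 in 91 mock and 0.86 in 150 PTIR1 cells, Ccl3 and Ccl4 of 0.55 and 0.71, and Rsad2 and Isg15 of 0.76 and 0.69. Rsad2 and Irf1 had 0.01 and 0.07, S100a9 and Rsad2 -0.08 and 0.08. All pairs share the depth of 1000 UMIs and the library. Pairs near 0 are given as values only, since counts of this depth are sparse.

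Members were also split into 3 ranges by their summed UMIs of genes typical of blood neutrophils, which include Retnlg and Cxcr2 of the rule, at 0 to 5, 6 to 10 and 11 or more UMIs per 1000. The ranges held 35, 25 and 31 mock and 54, 52 and 44 PTIR1 cells, and these sizes are in part set by the rule. They are ranges and not cell types. The type I list was lower in PTIR1 cells of each range, at 8.89 against 14.3 UMIs per 1000 in the low, 7.19 against 20.3 in the middle and 6.5 against 11.9 in the high range. The interferon gamma list had ratios of 0.429, 0.601 and 0.404. In strict members the type I ratio was 0.966 in the low range, 0.476 in the middle and 0.688 in the high range, so it was not lower by more than counting error (0.814 to 1.15) among those with the least blood-type RNA. Chemokines differed between ranges, with ratios of 1.11, 0.823 and 1.55.

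Levels are set beside those of the macrophage gate as a description. That gate left out cells with 3 or more UMIs of Csf3r, Cxcr2 and Retnlg, and the part of this limit in the values below was not tested. S100a9 was 985 times its macrophage level in mock and 372 times in PTIR1 members, and it is a gene of the rule. Of genes outside the rule, G0s2 was 1865 and 432 times the macrophage level, Il1b 19.8 and 13.4 times, Cxcl2 9.95 and 5.68 times, and Rsad2 10.3 and 5.72 times. G0s2 itself was 1.59-fold higher (1.52 to 1.68) in PTIR1 members, and 1.89-fold higher (1.78 to 2.01) in strict members. It was named after its values were seen.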

How the data were processed

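Both deposited 10x count matrices were used, 1 for each library of the study. Counts are UMIs per gene and barcode, as the authors deposited them, not normalized. Cell Ranger 5.0.0, Seurat 3.2.3 and the mm10 genome are named in the submitters' processing notes, without their role, and the annotation version is not given in the sources used here. Libraries were made with 3' chemistry v3.1, per the labels' protocols. The matrices held 10833 mock and 9006 PTIR1 barcodes, and 9328 and 7567 were kept, with 90269687 and 93780715 UMIs.

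Members' UMIs were summed by library and divided by their total (CPM). A ratio of PTIR1 to mock CPM was taken for genes with at least 50 UMIs over both libraries, with an exact conditional binomial 95% interval, and shares of cells have exact Clopper-Pearson intervals. UMIs within 1 cell are not independent, so these intervals are too narrow for differences between animals, and with 1 library in each group there was no test. A gene is called when it is past 1.5-fold. For shares of cells with a UMI, cells were thinned to 1000 UMIs without replacement. Gates for macrophages needed at least 5 UMIs of Adgre1 and C1qa. Those for B cells needed at least 5 of Cd79a, Cd79b and Ms4a1 and at most 2 of Adgre1 and C1qa. Both gates also required fewer than 3 UMIs of Csf3r, Cxcr2 and Retnlg. Doublets were called with Scrublet through scanpy 1.11.5, and its calls entered an alternative and did not remove members from the main values. In the mock library it called under 0.5% of cells, so the cells with the highest scores were taken instead, at 0.8% for each 1000 cells.

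Members and gene lists were chosen with earlier results of these data known. Genes were named by their place in each list: up to 3 in each direction by the interval end nearest to 1 and up to 4 by level, with the 12 highest and 12 lowest ratios over all genes and the 10 most variable genes. The 12 highest and 12 lowest ratios left out genes of the rule, mitochondrial and ribosomal protein genes, and genes under 5% of their level in another gated class. The choice within lists and of the most variable genes used no such filter. G0s2, Hdc, Mxd1, Mmp8, Trem1, Nkg7 and Gzma were named after their values were seen. Not all genes selected in these ways are described in the text. Of 484 listed symbols, 4 had no row. Positions are from GENCODE vM21, where 492 of 493 genes looked up had the same identifier, and promoters are from RefSeq. The software was pandas 2.3.3, scipy 1.17.1, numpy 2.4.6 and matplotlib 3.10.9 under Python 3.11.15. The ratios were tested on simulated independent Poisson counts per gene. That simulation held no variation between cells, so it could not check the intervals against such variation. Alternatives changed the rule's limits, cell weight, depth, scaling, count minimum and fold. The strict members, the receptor minimum, the limit of 10000 UMIs, and the removal of each gene's top cell were added after the data were seen.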

Additional observations from a re-analysis of the deposited data

Results flagged for a closer look

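Nr4a1 was lower in PTIR1 neutrophils, at a ratio of 0.559 to mock and 0.477 in strict members, and higher in the macrophage gate, at 2.75. Gzmf had a ratio of 0.0259 in neutrophils, 0.322 in strict members and 3.56 in the macrophage gate, and 479 of its 496 mock UMIs in neutrophils were in 1 cell. Among thinned strict members a Gzmf UMI was in 5 of 68 mock and 1 of 62 PTIR1 cells. Nr4a1 is in the immediate early and stress list, of which 13 of 19 were past 1.5-fold higher and 0 lower in the macrophage gate. The median log2 ratio of that list was 0.67 there. Both genes had ratios on opposite sides of 1 in the cell types of the same libraries, that of Gzmf on few cells. The difference was not tested, since each group had 1 library.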

How the results depend on the processing

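No paired analysis was possible because each group had 1 library and the labels give no replicate numbers. Leaving out a replicate was not run for the same reason. The ratio of shares was 1.38 without members with 3 or more UMIs of other cell markers, 1.31 with at least 2 Csf3r and Cxcr2 UMIs, and 1.07 in strict members. The count of genes past 1.5-fold higher was 429 with equal cell weight, 135 with thinned cells, 716 at a minimum of 20 UMIs, 54 at a minimum of 200, 72 at 2-fold and 85 in strict members. The count of genes past 1.5-fold lower was 98 with thinned cells, 854 at a minimum of 20, 58 at a minimum of 200, 108 at 2-fold and 139 in strict members. Fewer or more genes reach a count minimum by construction, and for the other settings the cause was not tested. For the median log2 ratio, interferon gamma response stood at -1.02 without cells with other markers and -0.95 in strict members. That of class I presentation was -0.33 with equal cell weight and -0.28 with thinned cells. That of the chemokines was 0.52 with no Adgre1 or C1qa UMI, 0.31 without Scrublet calls, 0.58 without cells with other markers, 0.23 with equal cell weight, 0.24 with thinned cells, 0.35 at a minimum of 20 and 0.34 at most 10000 UMIs. The medians of the type I list ran from -1.22 to -0.86 over the settings run.

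Of 66 genes past 1.5-fold that were followed, 60 kept their direction and 46 their size in strict members. Ratios that turned were those of Ly6a (0.331 without cells with other markers, 0.349 in strict members), Hspa1a (0.604 with at least 2 receptor UMIs, 0.201 in strict members), Mt1 (0.654 in strict members), Prdx1 (0.736) and Fcgr2b (0.985). Gzmd turned to 1.27 without cells with other markers, 1.63 at most 10000 UMIs, 1.74 in strict members and 1.28 without its top cell. The cause was not tested. With 99 and 157 cells, genes of low level were not measured.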
